A study of Homo sapiens with 12 samples.

Results

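The mitochondrial fission and fusion genes described here are 8 genes, DNM1L, FIS1, MFF, MIEF1, MFN1, MFN2, OPA1 and OMA1, of the 60612 genes in the expression table. They were taken by gene name, and all 8 were found and passed the filter on low counts. Mitochondria form a network that is cut by fission and joined by fusion. DNM1L (also called DRP1) is a dynamin-type GTPase of the cytosol that assembles around the outer membrane and constricts it, and FIS1, MFF and MIEF1 (also called MiD51) are outer membrane proteins that recruit or hold it. MFN1 and MFN2 are GTPases that fuse outer membranes, OPA1 is the GTPase that fuses inner membranes and shapes cristae, and OMA1 is an inner membrane protease that cleaves OPA1 under stress and so limits fusion.

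Polyadenylated RNA of LX2 cells, an established line of wild-type human hepatic stellate cells, was sequenced in 12 libraries of 3 groups. All cells were starved of serum for 16 h, starting 24 h after seeding. The control group (4 libraries) was otherwise untreated, the TGFb group (4 libraries) received transforming growth factor beta at 5 ng/ml for 16 h, and the third group (4 libraries, STINGX with TGFb) received STINGX (a compound known here by its code name, IFM - 004990-7), 10 µM, starting 3 h ahead of the same TGFb treatment. No group had STINGX without TGFb, and LX2 is a single line. Nothing in the labels calls the replicates separate cultures, and the p-values below therefore cover library-to-library spread that may be technical.

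Library totals ran from 54035320 to 70787741 counts, and levels are given in CPM (counts relative to library size, scaled by trimmed means of M-values) or, between genes, in FPKM (which also divides by length). Of 12 stellate markers 10 averaged at least 1 CPM in each group, while DES and LRAT were at 0 in all 12 libraries. The list summed to 7371 to 7409 CPM in control, 12600 to 12839 with TGFb and 5888 to 6327 with STINGX and TGFb. Most of it was VIM, whose groups overlapped, and COL1A1 (2290 to 2329, 6253 to 6509 and 1629 to 1662 CPM in the same order). COL3A1 went the other way with TGFb, at 344 to 356 CPM against 570 to 604 in control. TIMP1 did not share the lower sum with STINGX and TGFb, at 366 to 438 CPM against 292 to 380 in control. Hepatocyte markers summed to at most 0.119 CPM over 6 genes, with ALB at 0 throughout. The 6 leukocyte markers summed to 72.1 to 79.7 CPM in control, 24.7 to 29.6 with TGFb and 72.6 to 88.3 with STINGX and TGFb. Of these 6, 2 averaged at least 1 CPM in each group, mostly CD68 (56.9 to 61.0 CPM in control), and PTPRC did not exceed 0.420 CPM. The other, CD14, did not follow the sum. It was at 13.4 to 18.5 CPM in control, 1.79 to 2.96 with TGFb and 1.72 to 2.79 with STINGX and TGFb. The 6 endothelial markers (40.0 to 48.2, 31.5 to 33.4 and 49.8 to 50.3 CPM, mostly TIE1) and the 6 epithelial ones (44.7 to 48.8, 56.7 to 65.1 and 29.4 to 30.7 CPM, mostly SOX9 and KRT7) also differed between groups, with EPCAM at no more than 0.0683 CPM. Unlike TIE1, PECAM1 was lower with STINGX and TGFb (0.581 to 0.748 CPM) than in control (1.56 to 2.25 CPM). So was CDH5 (0.108 to 0.425 against 1.47 to 2.07 CPM). Of the epithelial markers, KRT7 was higher with TGFb (26.4 to 33.8 CPM) than in control (10.9 to 17.7 CPM). SOX9 overlapped between these groups (30.1 to 31.4 and 29.4 to 34.2 CPM). The part of these markers in the results was not tested. In bulk RNA, fewer cells of a type and less RNA per cell cannot be told apart.

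Of the 30 DNM1L transcripts in the table, 4 held at least 10% of its counts each, and these differ by 3 coding exons, which are printed first. The sequences are those of GENCODE 29 on GRCh38, plus strand, each printed whole in lower case with nothing marked. Exon 1 lies at chr12:32705825-32705863 (39 bases), exon 2 at chr12:32737865-32737942 (78 bases) and exon 3 at chr12:32738264-32738296 (33 bases).
DNM1L alternative exon 1: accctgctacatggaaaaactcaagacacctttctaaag
DNM1L alternative exon 2: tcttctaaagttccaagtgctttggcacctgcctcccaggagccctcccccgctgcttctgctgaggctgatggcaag
DNM1L alternative exon 3: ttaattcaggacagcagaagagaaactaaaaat
Each length is a multiple of 3, so skipping an exon removes 13, 26 or 11 codons and keeps the reading frame. Exons 2 and 3 encode part of the variable domain, the segment of the protein that differs most between its isoforms. DNM1L-207 (ENST00000452533) has exon 3 and neither of the others, DNM1L-211 (ENST00000547312) has exon 2, DNM1L-203 (ENST00000381000) has exons 1 and 2, and DNM1L-201 (ENST00000266481) has none of them.

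Levels in FPKM set the members apart. The length used in these values was not the mean length of the transcripts to which counts were assigned, and the order between genes can depend on it. FIS1 was the most abundant in every library, with a mean of 24.6 FPKM over the 12 libraries (range 20.5 to 28.1), and MFN2 came next in every library at 14.4 FPKM (13.5 to 15.1). DNM1L (11.5 FPKM, 6.60 to 14.5) and MFF (9.97 FPKM, 8.16 to 11.7) held the places 3 and 4. In FPKM, MFF was above DNM1L in all 4 control libraries and below it in all 8 treated ones. That crossing depended on the length used. Per mean assigned length, MFF would stand above DNM1L in every library. In TGFb replicate 2, for example, MFF had 64.0 CPM on 1770 nt and DNM1L 128.8 CPM on 3945 nt. MFN1 (5.70 FPKM, 4.70 to 6.39), OPA1 (5.61 FPKM, 4.97 to 7.04) and MIEF1 (4.93 FPKM, 2.68 to 8.13) exchanged the places 5 to 7, so their order did not exceed the spread between libraries. OMA1 was the lowest in every library at 0.957 FPKM (0.706 to 1.123). Of all 21328 genes tested, 93.1% had a lower mean FPKM than FIS1 and 40.5% a lower one than OMA1.

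**Figure D1:**
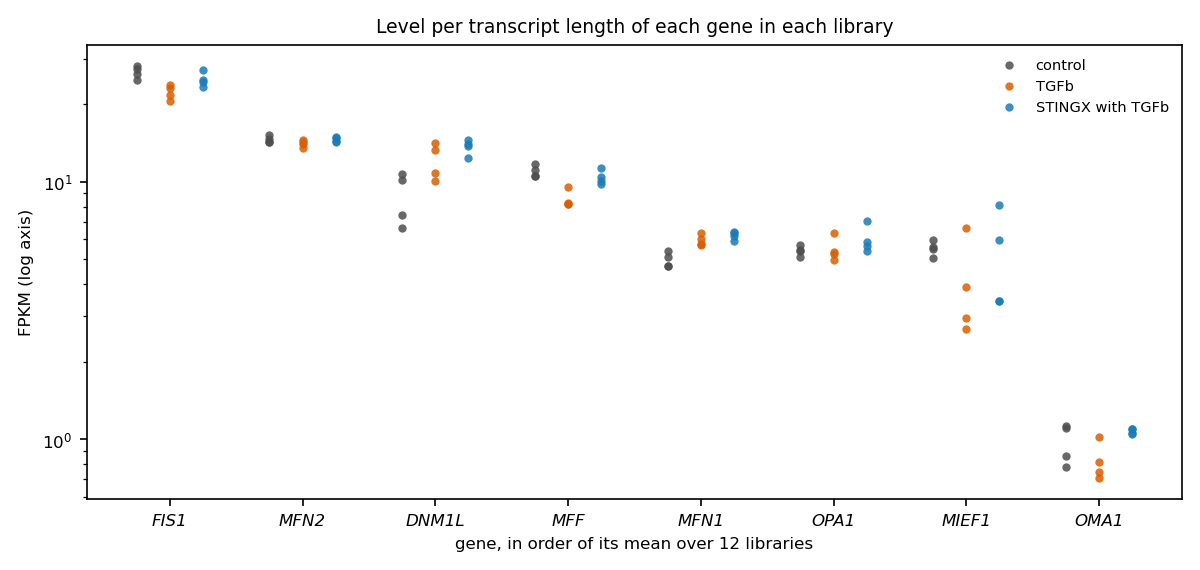
FPKM of the 8 genes (log axis) in each of the 12 libraries, coloured by group, with genes in the order of their mean. FIS1 lies between 20.5 and 28.1 FPKM and OMA1 between 0.706 and 1.123 FPKM, with no other gene in either range.

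DNM1L, the constricting GTPase (ENSG00000087470, GRCh38, chromosome 12, 32679200 to 32745650, plus strand), read 65.6, 90.1, 91.8 and 56.7 CPM in control replicates 1 to 4. With TGFb it read 92.4, 128.8, 119.6 and 97.0 CPM, and with STINGX and TGFb 102.5, 114.5, 118.6 and 114.9 CPM. Every treated library was above every control library, although control replicate 3 (91.8 CPM) came within 1 CPM of the lowest TGFb library (92.4 CPM). The control libraries were the most scattered, with a coefficient of variation of 23.1% against 6.22% with STINGX and TGFb.

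FIS1, the small tail-anchored adaptor (ENSG00000214253, chromosome 7, 101239458 to 101252316, minus strand), read 61.0, 59.8, 51.9 and 55.3 CPM in control, 53.4, 46.1, 48.1 and 51.3 CPM with TGFb and 55.3, 47.7, 50.015 and 49.3 CPM with STINGX and TGFb. The groups overlapped through control replicate 3. MFF, the adaptor that recruits DNM1L to the outer membrane (ENSG00000168958, chromosome 2, 227325151 to 227357836, plus strand), read 87.8, 79.1, 80.0 and 76.1 CPM in control and 63.3, 64.0, 62.4 and 72.7 CPM with TGFb. The 4 TGFb libraries were all below the 4 control libraries. With STINGX and TGFb, MFF read 68.3, 79.2, 72.4 and 69.9 CPM, overlapping both other groups.

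MIEF1, which recruits DNM1L and can also hold it inactive (ENSG00000100335, chromosome 22, 39499432 to 39518132, plus strand), read 46.3, 50.4, 52.7 and 49.8 CPM in control. With TGFb it read 62.6, 28.2, 25.1 and 36.4 CPM, and with STINGX and TGFb 51.0, 70.03, 29.4 and 29.6 CPM. Both treated groups thus held libraries above and far below control, with coefficients of variation of 44.7% and 43.4% against 5.31% in control.

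**Figure D2:**
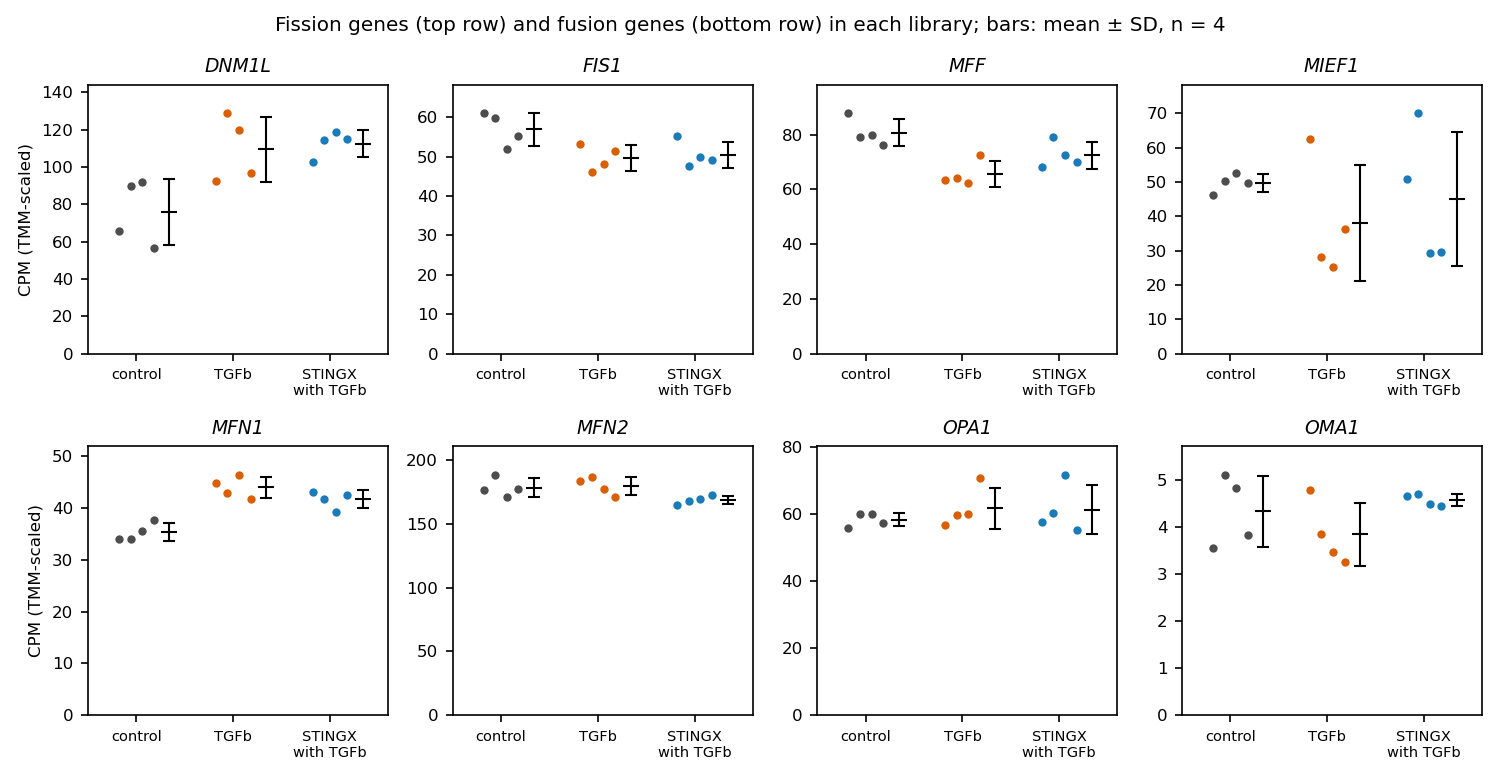
CPM of the fission genes (top row) and the fusion genes (bottom row) in each library, with points in the order of replicates 1 to 4 and bars for mean ± SD (n = 4). DNM1L and MFN1 lie higher in all 8 treated libraries than in control, MFF lies lower in the 4 TGFb libraries, and MIEF1 scatters from 25.1 to 70.03 CPM in the treated groups.

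MFN1, one of the outer membrane fusion GTPases (ENSG00000171109, chromosome 3, 179347709 to 179394936, plus strand), read 34.03, 34.03, 35.6 and 37.6 CPM in control, 44.9, 42.9, 46.4 and 41.7 CPM with TGFb and 43.2, 41.7, 39.2 and 42.5 CPM with STINGX and TGFb. All 8 treated libraries were above all control libraries. MFN2, its paralogue that also tethers mitochondria to the endoplasmic reticulum (ENSG00000116688, chromosome 1, 11980181 to 12015211, plus strand), read 176.7, 188.6, 171.2 and 177.3 CPM in control, 183.7, 187.1, 177.4 and 170.8 CPM with TGFb and 165.0, 167.9, 169.4 and 172.5 CPM with STINGX and TGFb. These ranges overlapped.

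OPA1, the inner membrane fusion GTPase (ENSG00000198836, chromosome 3, 193593144 to 193697811, plus strand), read 55.9, 60.0, 59.9 and 57.3 CPM in control, 56.7, 59.5, 59.8 and 70.6 CPM with TGFb and 57.7, 60.3, 71.6 and 55.3 CPM with STINGX and TGFb. A single library of each treated group was above 70 CPM and the other 10 lay between 55.3 and 60.3 CPM. OMA1, the stress-activated protease (ENSG00000162600, chromosome 1, 58415384 to 58546758, minus strand), rested on 170 to 348 counts per library. It read 3.56, 5.12, 4.83 and 3.84 CPM in control, 4.79, 3.86, 3.48 and 3.27 CPM with TGFb and 4.66, 4.71, 4.49 and 4.46 CPM with STINGX and TGFb, with overlap between all groups.

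The comparison of TGFb with control asked how the cytokine changed these messages in LX2 cells. DNM1L and MFN1 rose, and MFF fell. In all, 3 of the 8 members passed an adjusted p under 0.05 in edgeR's quasi-likelihood test, where 26.0% of all genes tested did (13.2% higher, 12.8% lower). The libraries of the groups did not overlap for the same 3 members, nor for 27.1% of all genes (13.9% higher, 13.1% lower). DNM1L rose from 76.0 ± 17.6 to 109.5 ± 17.5 CPM (SD, n = 4), a log2 change of 0.53 ± 0.16 (SE) or 43.9% (edgeR adjusted p = 0.0289). MFN1 rose from 35.3 ± 1.70 to 44.0 ± 2.09 CPM, a log2 change of 0.32 ± 0.06 or 24.5% (edgeR adjusted p = 0.00101). MFF fell from 80.7 ± 4.97 to 65.6 ± 4.80 CPM, a log2 change of -0.30 ± 0.07 (edgeR adjusted p = 0.0049). DNM1L and its adaptor MFF thus had changes of opposite sign.

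The other members did not pass. FIS1 was at 57.0 ± 4.21 CPM in control and 49.7 ± 3.27 CPM with TGFb (log2 change -0.20, 95% interval -0.35 to -0.04, edgeR adjusted p = 0.0571). MIEF1 had the widest interval of the 8, from -1.12 to 0.35. The intervals were -0.08 to 0.10 for MFN2, -0.11 to 0.27 for OPA1 and -0.49 to 0.16 for OMA1. The median log2 change was -0.25 over the 4 fission members, 0.05 over the 4 fusion members and -0.08 over all 8, beside -0.0040 over all genes tested. The rise of DNM1L lost its call without control replicate 1 (adjusted p = 0.0832), control replicate 4 (0.0585), TGFb replicate 2 (0.0849) or TGFb replicate 3 (0.0758), and under 4 other settings, whereas the calls of MFN1 and MFF held under all 26 alternatives tried. FIS1 passed, lower, under 12 of the 26.

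**Figure D3:**
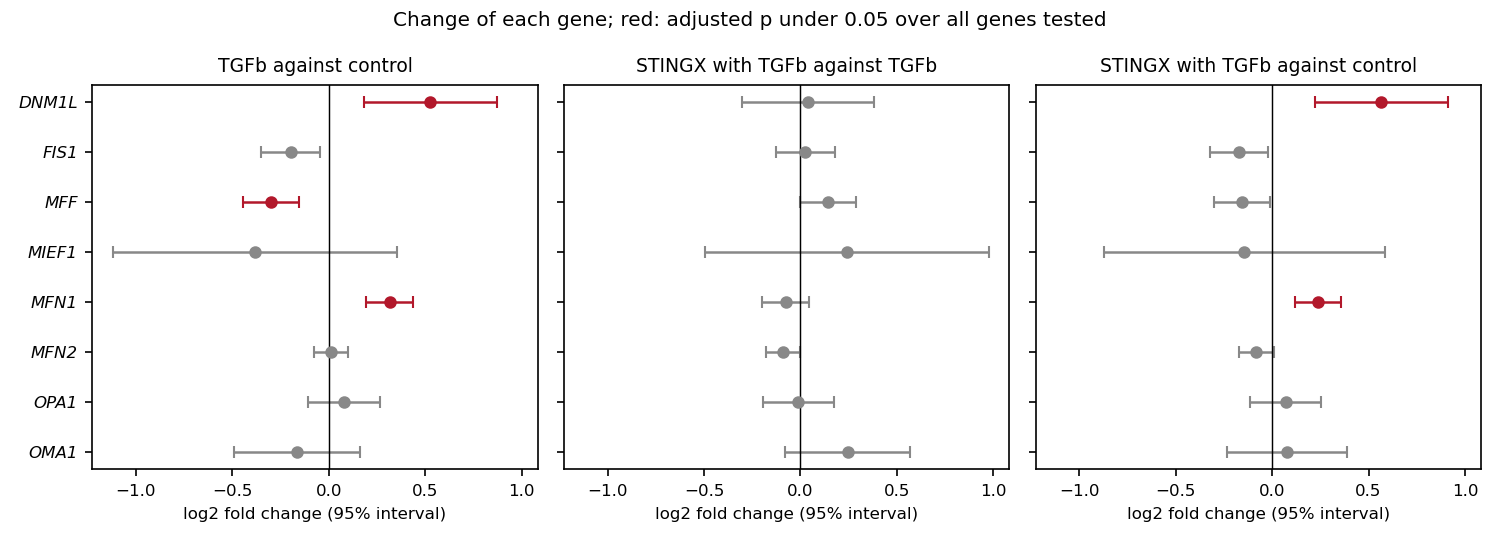
Log2 fold change of each gene in the 3 comparisons with its 95% interval, from edgeR's quasi-likelihood fit to all 12 libraries. DNM1L and MFN1 are past the threshold on the higher side in both comparisons with control, MFF on the lower side with TGFb alone, and no gene is past it between the treated groups.

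Between the treated groups the question was what the compound changed when given ahead of the cytokine. Of the 8 members 0 passed in edgeR, where 27.5% of all genes did (13.7% higher with STINGX, 13.8% lower). The libraries of the groups overlapped for every member, while for 31.6% of all genes they did not. At an unadjusted p under 0.05 there was 1 of 8, and DESeq2 and limma-voom also called 0. That 1 was MFN2, at 179.7 ± 7.17 CPM with TGFb and 168.7 ± 3.08 CPM with STINGX and TGFb (log2 change -0.09, 95% interval -0.18 to -0.0025, edgeR adjusted p = 0.123). MFF was at 65.6 ± 4.80 and 72.4 ± 4.84 CPM (0.14, interval -0.0012 to 0.29, adjusted p = 0.136). Of the remaining intervals, that of MFN1 ran from -0.20 to 0.04, that of FIS1 from -0.13 to 0.18 and that of OPA1 from -0.20 to 0.18. DNM1L (-0.30 to 0.38), OMA1 (-0.08 to 0.57) and MIEF1 (-0.49 to 0.98) were less tightly bounded. The median was 0.03 over the members and 0.0063 over all genes. MFF passed, higher, without TGFb replicate 4 (log2 change 0.20, adjusted p = 0.0464), its highest TGFb library, and when libraries were scaled by their totals alone (0.28), a scaling that moved the median of all genes to 0.15.

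Set against control, the STINGX with TGFb group had 2 of 8 members past the threshold, both higher, where 34.2% of all genes were (17.2% higher, 17.0% lower). The same 2 were the members whose libraries did not overlap on the higher side, as for 17.8% of all genes (34.5% in either direction). DNM1L was at 112.6 ± 7.00 CPM against 76.0 ± 17.6 (log2 change 0.57 ± 0.16, edgeR adjusted p = 0.0156), and MFN1 at 41.7 ± 1.72 CPM against 35.3 ± 1.70 (0.24 ± 0.06, edgeR adjusted p = 0.00512). MFF did not pass (-0.16, 95% interval -0.30 to -0.01, adjusted p = 0.0906), nor did FIS1 (-0.17, -0.32 to -0.02, adjusted p = 0.0756), MFN2 (-0.17 to 0.0080), OPA1 (-0.12 to 0.26), OMA1 (-0.23 to 0.39) or MIEF1 (-0.87 to 0.59). The median over the members was -0.0054, beside 0.0042 over all genes. With upper quartile scaling 5 members passed, the others being FIS1, MFF and MFN2, all lower.

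The 3 comparisons share libraries, so their values are set side by side and not tested against each other. The log2 change of DNM1L was 0.53 with TGFb against control, 0.04 with STINGX and TGFb against TGFb and 0.57 with STINGX and TGFb against control. For MFN1 these were 0.32, -0.08 and 0.24, and for MFF -0.30, 0.14 and -0.16.

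Transcript estimates showed how unevenly the reads of some members had been assigned. DNM1L-207, the form with exon 3, held 51.2% of all DNM1L counts, but only 2.69% in control replicate 3, 12.7% in STINGX with TGFb replicate 2 and 3.00% in replicate 3. In the other 9 libraries it held between 38.2% and 81.7%. DNM1L-203, the form with exons 1 and 2, held 51.8%, 11.8% and 48.3% in the former 3 libraries, against 2 counts in all the rest together. Control and STINGX with TGFb thus each held libraries of both kinds, and the 4 TGFb libraries were of one kind.

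Summed over every transcript that spans it, exon 3 was in 6.13% of DNM1L counts in control replicate 3, 37.6% and 6.34% in STINGX with TGFb replicates 2 and 3, and 53.5% to 83.4% in the other libraries. Exon 1 was in 56.3%, 24.8% and 52.8% of counts in those 3 and in at most 4.21% elsewhere. Exon 2 ranged from 12.8% to 58.8%.

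edgeR's test of transcript usage, over 12322 genes, asked whether the division within a gene differed between groups. With TGFb against control 0 of 8 members passed, where 5.19% of genes did, and 3 of 8 had an unadjusted p under 0.05 (no other tool was run for usage); the adjusted p was 0.0682 for DNM1L and 0.0577 for MIEF1. DNM1L passed when any of control replicates 1, 2 and 4, TGFb replicates 1, 3 and 4 or STINGX with TGFb replicates 1 and 4 was left out (lowest adjusted p = 0.00178), and with a minimum total of 100 counts (0.00331). With STINGX and TGFb against TGFb the division of DNM1L passed (edgeR adjusted p = 0.0073), 1 of 8 members where 4.25% of genes did. That call was lost without STINGX with TGFb replicate 2 (adjusted p = 0.0543). DNM1L-203 was not among the transcripts tested. Taken singly, no named transcript of a member passed in any of the comparisons. With STINGX and TGFb against control MIEF1 passed (edgeR adjusted p = 0.041), 1 of 8 where 4.93% did, and its call was lost without STINGX with TGFb replicate 1 (0.0679) or replicate 4 (0.118).

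MIEF1-201, the main MIEF1 transcript, held 84.6% to 95.2% of counts in 10 libraries but 54.1% in control replicate 2 and 36.3% in STINGX with TGFb replicate 1. OPA1 was also unevenly assigned. OPA1-205 held 67.2% of its counts in control replicate 1 and 7.75% to 27.5% elsewhere, and OPA1-225, a form marked for nonsense-mediated decay, held 42.3% and 51.2% in control replicates 3 and 4 and 0 in replicates 1 and 2.

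The gene totals were read beside the mean length of the transcripts to which counts were assigned. For DNM1L with TGFb both had the same order, with lengths of 3554, 3668, 3905 and 3945 nt beside 92.4, 97.0, 119.6 and 128.8 CPM. In control the 2 shortest (3087 and 3509 nt) were the 2 lowest (56.7 and 65.6 CPM). With STINGX and TGFb the order did not match, since the shortest (3283 nt) stood beside 114.5 CPM and 3839 nt beside the lowest level, 102.5 CPM. MIEF1 with TGFb had lengths of 5103, 5308, 5353 and 5384 nt beside 25.1, 28.2, 36.4 and 62.6 CPM, while in control the shortest (4759.5 nt) stood beside 50.4 CPM and with STINGX and TGFb the shortest (4400.2 nt) beside 51.0 CPM, both the second highest level of their group. The part of read assignment in the differences between groups was not tested. Without the 3 libraries whose DNM1L division stood apart, DNM1L had a log2 change of 0.62 with STINGX and TGFb against control and did not pass (edgeR adjusted p = 0.0698, 9 libraries). MFN1-205 held 45.0% of counts in TGFb replicate 3 and 92.5% to 97.4% elsewhere, while the gene total of that replicate (46.4 CPM) was within 2 CPM of the next TGFb library (44.9 CPM). Only 6 of the 33 MFN2 transcripts were in GENCODE 29, so its isoforms are not described.

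**Figure D4:**
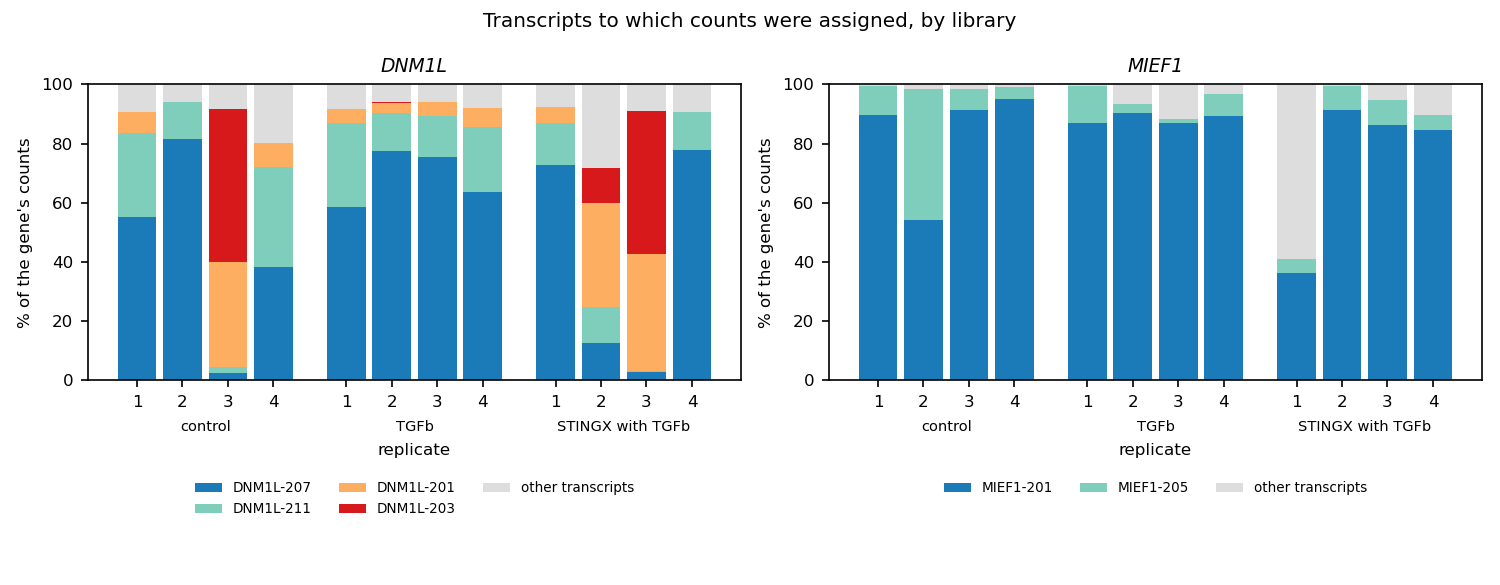
Percent of the counts of DNM1L and MIEF1 assigned to each named transcript in each library (stacked bars; grey is all other transcripts). DNM1L-207 holds 38.2% to 81.7% in 9 libraries and 2.69% to 12.7% in control replicate 3 and STINGX with TGFb replicates 2 and 3.

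Some member counts could hold reads of a neighbour, since the sources used here do not say whether strand was used in counting. DNM1L (3830 to 8467 counts) overlaps YARS2 (1413 to 2567 counts) on the opposite strand. MIEF1 (1313 to 5179 counts) overlaps AL022312 (74 to 248 counts) on its own strand, and MFF overlaps MFF-DT (51 to 204 counts) on the opposite one.

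Of the called members, MFN1 has a RefSeq promoter window that ends where its gene begins in the deposited table, and it is shown with its motif matches. The window is the 250 bases before the start, chr3:179347459-179347708 on GRCh38.p14, plus strand, with 2 matches to the ETS-type motif CCGGAAG in capitals, at -63 (minus strand) and -22 (plus strand).
MFN1 promoter: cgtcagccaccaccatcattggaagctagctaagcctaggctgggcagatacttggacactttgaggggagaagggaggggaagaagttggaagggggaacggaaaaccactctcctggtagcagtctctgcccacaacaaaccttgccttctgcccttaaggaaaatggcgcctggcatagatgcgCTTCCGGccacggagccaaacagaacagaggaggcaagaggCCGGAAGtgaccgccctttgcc
MFF has several windows, and only 1 held a match, to the SMAD-type motif CAGACA on the minus strand at -101. That window ends at 227325250, past the MFF start in the deposited table (227325151), and the match lies across that start. It is shown with the bases around it, 30 in all (chr2:227325138-227325167, plus strand).
MFF promoter match: ccacaacaaagaTGTCTGcgcatcgcttac
Windows were searched on both strands for these 2 motifs and for an NRF1-type (GCGCATGC), a UPRE-type (TGACGTGG) and an ATF4-type (TGATGNAA) motif. FIS1 and MIEF1 each held 1 ETS-type match and OPA1 held the NRF1-type motif as 2 overlapping matches, 1 per strand. DNM1L, MFN2 and OMA1 held none. By the deposited gene positions, the windows of FIS1, MIEF1 and MFN2 and the other MFF windows lay inside the gene. That of FIS1, for example, was at 101245082 to 101245331, with the gene start at 101252316. The windows of DNM1L, OPA1 and OMA1 ran past the gene start. Matches and absences in these windows are therefore not all upstream of the deposited starts. Of 35116 promoters of the same length, 8.52% held the ETS-type, 13.6% the SMAD-type and 2.63% the NRF1-type motif. These shares are per single window, so they understate how often a gene searched in several windows, as MFF was, would hold a match. A match is a run of letters and not a measured binding site.

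Genes with the profile most like a called member over the 12 libraries were ranked by Pearson correlation of log2 CPM among 10315 genes of at least 10 CPM. The same libraries, depth and group differences enter both genes, so this is a description. For DNM1L they were RBBP5 (r = 0.97, 27.5 ± 1.92, 31.2 ± 1.04 and 31.9 ± 1.04 CPM in control, TGFb and STINGX with TGFb) and MRAS (r = 0.94). For MFN1, TSHZ3 is given (r = 0.96, 29.8 ± 2.16, 41.4 ± 3.10 and 37.2 ± 2.89 CPM). For MFF they were RPS6KA5 (r = 0.92, 16.5 ± 1.32, 11.5 ± 1.01 and 13.6 ± 1.15 CPM) and SOX12 (r = 0.90).

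Around the members, 87 further genes of 8 lists (fission partners, fusion partners, inner membrane proteases, modifying enzymes, cristae, transport, content markers and the stress relay downstream of OMA1) were read from the same fit, and 86 were tested. With TGFb against control 13 were higher and 10 lower (26.0% of all genes passed), with STINGX and TGFb against TGFb 17 and 15 (27.5%), and with STINGX and TGFb against control 17 and 13 (34.2%). The counts per list below are to be read against the same percentages. Their median log2 changes were 0.04, -0.09 and -0.04.

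Among 13 fission partners, TGFb raised 1 and lowered 1. SPIRE1, an actin nucleator with a mitochondrial form that acts at sites of constriction, rose from 80.2 ± 4.10 to 106.1 ± 5.60 CPM with TGFb (log2 change 0.40, edgeR adjusted p = 4.27e-05). It rose again to 137.1 ± 2.49 CPM with STINGX and TGFb (0.37 against TGFb, adjusted p = 8.09e-05). MTFR1L, of a family named for mitochondrial fission, fell from 49.6 ± 2.09 to 41.6 ± 1.42 CPM with TGFb. Between the treated groups 3 partners were higher and 1 lower with STINGX (27.5% of all genes passed). These 4 calls became 2 with no filter, without TGFb replicate 4, without STINGX with TGFb replicate 2 or 4, and without the 3 libraries that stood apart in DNM1L. MTFR1, of the same family, rose from 21.9 ± 1.24 to 27.7 ± 1.08 CPM (adjusted p = 0.00297), and MTFP1, an inner membrane protein, fell from 12.5 ± 1.13 to 9.47 ± 1.62 CPM (adjusted p = 0.0437), a call that held in 12 of 26 alternatives.

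Of 8 fusion partners, 1 was lower with TGFb, and 2 were higher and 1 lower with STINGX and TGFb against TGFb. MTCH2, an outer membrane insertase, fell from 57.8 ± 5.17 to 49.5 ± 0.725 CPM with TGFb (edgeR adjusted p = 0.0165). MSTO1, a cytosolic fusion factor, was at 32.9 ± 2.63 CPM with TGFb and rose to 57.8 ± 10.6 CPM with STINGX (log2 change 0.81, adjusted p = 0.000498). MIGA1, an outer membrane fusion factor, rose from 22.7 ± 2.84 to 31.3 ± 1.31 CPM (0.46, adjusted p = 0.000992). STOML2, an inner membrane scaffold needed for stress-induced fusion, fell from 90.3 ± 3.34 to 71.1 ± 5.12 CPM (-0.35, adjusted p = 0.0035).

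YME1L1, which cleaves OPA1 beside OMA1, was the only one of 7 inner membrane proteases and prohibitins to pass with TGFb against control. It rose from 153.1 ± 3.98 to 186.5 ± 6.86 CPM (log2 change 0.28, edgeR adjusted p = 0.000102). It fell to 166.6 ± 3.84 CPM with STINGX and TGFb (-0.16 against TGFb, adjusted p = 0.00622), a call lost under library totals alone and 3 FPKM settings. PARL, a rhomboid protease, fell from 31.3 ± 3.16 to 23.2 ± 2.71 CPM between the treated groups (adjusted p = 0.0165, held in 19 of 26 alternatives).

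Of 16 enzymes that modify the members, 1 was higher and 2 lower with TGFb against control, and 4 and 5 with STINGX and TGFb against TGFb (26.0% and 27.5% of all genes passed). The 3 calls with TGFb became 5 without control replicate 1 or 3 and 5 to 7 under 7 other settings, and the 9 between the treated groups became 5 without the 3 libraries. MUL1, a ligase of the outer membrane that acts on DNM1L and MFN2, fell from 52.2 ± 4.57 to 40.8 ± 0.809 CPM with TGFb and rose to 49.9 ± 0.457 CPM with STINGX (log2 changes -0.35 and 0.29, edgeR adjusted p = 0.00068 and 0.00264). SENP5, a SUMO protease that acts on DNM1L, rose from 60.2 ± 2.84 to 72.2 ± 2.56 CPM with TGFb. CDK1, the mitotic kinase that phosphorylates DNM1L, fell from 57.8 ± 2.84 to 33.2 ± 2.22 CPM with STINGX and TGFb against TGFb (-0.80, adjusted p = 5.37e-07). PRKACA, the protein kinase A subunit that phosphorylates DNM1L at its inhibitory site, fell from 146.2 ± 5.52 to 104.3 ± 4.66 CPM (-0.49, adjusted p = 5.13e-05). RNA levels say nothing of the phosphorylation of the protein.

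**Figure D5:**
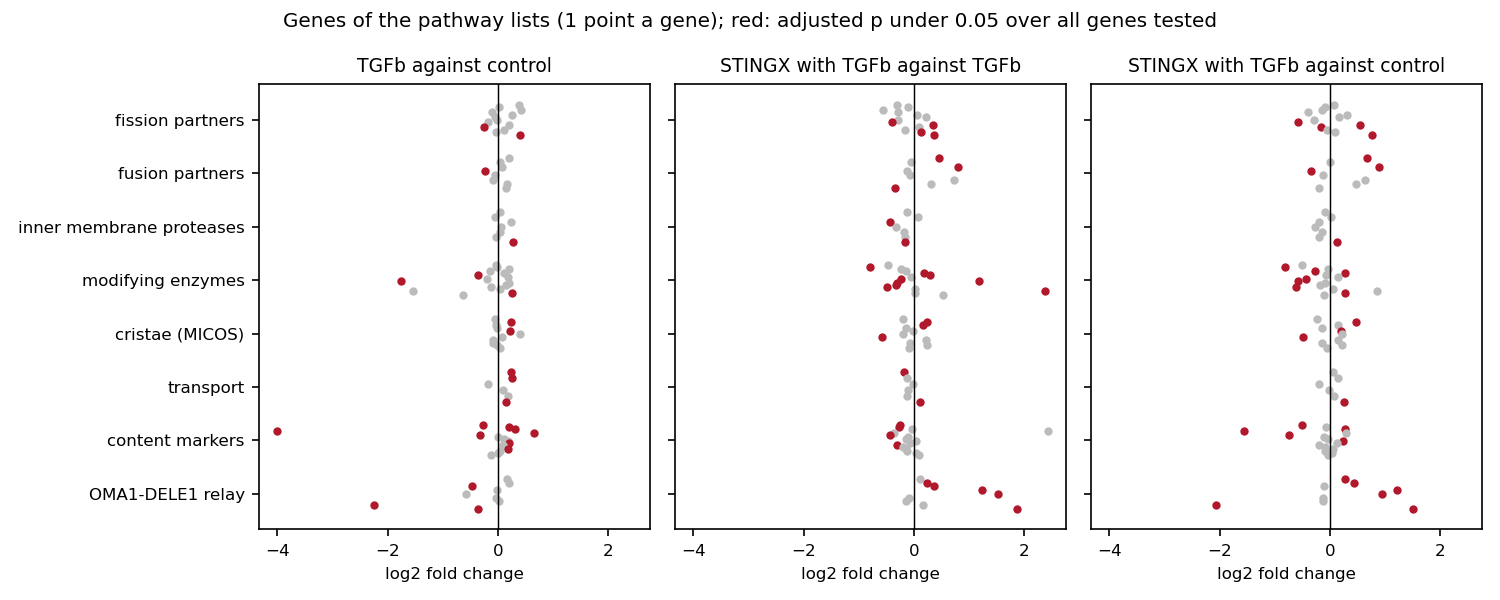
Log2 fold change of each gene of the 8 pathway lists in the 3 comparisons (1 point a gene, red where the adjusted p is under 0.05). In both comparisons of STINGX with TGFb, called genes appear on both sides of 0 in most lists. With TGFb against control most lists have them on a single side, such as transport with 3 higher and 0 lower. TRIB3 and DDIT3 of the stress relay reach 1.87 and 1.53 with STINGX and TGFb against TGFb.

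Of 6 transport genes 3 were higher and 0 lower with TGFb, where 13.2% of all genes were higher. These became 1 under upper quartile scaling and 2 FPKM settings, and without control replicate 2, TGFb replicate 2 or TGFb replicate 4. In the 11 genes of the MICOS complex and its partners, 2 were higher and 0 lower with TGFb. That count moved under 12 of 26 alternatives, to 0 with library totals alone and 3 FPKM settings, and to 1 without control replicate 1 or 2 or TGFb replicate 1 or 4. MICOS10, a core subunit, fell from 32.0 ± 4.39 to 21.6 ± 1.55 CPM with STINGX and TGFb against TGFb (log2 change -0.57, edgeR adjusted p = 0.000636). KIF5B, a kinesin that carries mitochondria, rose from 249.7 ± 8.55 to 294.1 ± 4.50 CPM with TGFb (0.24, adjusted p = 0.000137) and fell to 261.1 ± 2.13 CPM with STINGX (-0.17, adjusted p = 0.00153), a call lost under the same 4 settings as that of YME1L1.

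Markers of mitochondrial content went both ways, with 5 of 16 higher and 3 lower with TGFb, and 0 and 4 with STINGX and TGFb against TGFb (26.0% and 27.5% of all genes passed). With log2(FPKM + 1) unfiltered these 8 and 4 calls became 5 and 2, and the 4 became 2 without the 3 libraries. HSPD1, the matrix chaperonin, rose from 402.3 ± 8.78 to 499.8 ± 17.3 CPM with TGFb (log2 change 0.31, edgeR adjusted p = 1.88e-05). SDHA, the flavoprotein of complex II, fell from 405.0 ± 19.5 to 325.2 ± 12.2 CPM with TGFb and to 241.3 ± 10.4 CPM with STINGX and TGFb (-0.32 and -0.43). Members were not scaled to these markers, and whether the amount of mitochondria differed between groups was not tested.

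OMA1 is also the start of a relay in which it cleaves DELE1, which activates the kinase EIF2AK1 and then ATF4 and its targets. OMA1, DELE1 and EIF2AK1 passed in none of the 3 comparisons (DELE1 was at 89.8 ± 4.26, 88.3 ± 5.80 and 82.8 ± 1.93 CPM in control, TGFb and STINGX with TGFb). Of 9 relay genes tested, 0 were higher and 3 lower with TGFb, and 5 were higher and 0 lower with STINGX and TGFb against TGFb, where 12.8% of all genes were lower and 13.7% higher respectively. TRIB3, a pseudokinase target of ATF4, rose from 41.5 ± 2.35 to 151.1 ± 4.37 CPM (log2 change 1.87, edgeR adjusted p = 6.82e-10), and DDIT3 (also called CHOP) from 29.5 ± 10.6 to 85.2 ± 24.2 CPM (1.53, adjusted p = 0.00446). GDF15, a secreted stress cytokine, fell from 4.64 ± 0.224 to 0.980 ± 0.0837 CPM with TGFb (-2.24, adjusted p = 2.03e-06) and was at 1.11 ± 0.360 CPM with STINGX and TGFb. Other inputs reach ATF4 as well, and which of them bore on these levels was not tested.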

How the data were processed

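The authors deposited estimated counts per gene and per transcript and an FPKM table, from 12 strand-specific polyadenylated RNA libraries of LX2 cells. The submitters' processing notes name cutadapt, HISAT2, StringTie, edgeR and GRCh38; their roles and versions, the annotation release and any use of strand in counting were not given in the sources used here. In the deposited tables the estimated counts were whole, and transcripts summed to the gene count for all 60612 genes. The deposited FPKM values list a count of 0 as 0.0001. Depth was 54035320 to 70787741 counts. No 2 replicates of a group agreed within sampling noise (chi-square per degree of freedom 38.4 to 80.8).

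Genes were kept by filterByExpr (minimum 10 counts, total 15; 21328 genes) and tested with edgeR 4.0.16 in R 4.3.3 (TMM scaling, robust quasi-likelihood F test, newer form of the fit, group as the only term, 12 libraries, 9 residual degrees of freedom), with Benjamini-Hochberg adjustment over all genes and a threshold of 0.05. The biological coefficient of variation was 28.0%. SE is the change over the square root of F. Transcript usage was tested with diffSpliceDGE. Both tests were checked on simulated data. Simulated transcripts had expected shares that were fixed within a group, so the check did not cover swings between replicates like those of DNM1L. limma 3.58.1 and DESeq2 1.42.0 served as alternatives, as did other scalings, filters, log2(FPKM + 1) and log2(FPKM + 0.1), 2-group fits, a replicate block and each library left out.

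The members and lists were chosen with earlier results of these data known. All 131 list genes matched, 1 by an older symbol. From each list the 2 largest rises and 2 largest falls among called genes of at least 2 CPM could be named; DELE1 and EIF2AK1 were added after their values were seen. Transcripts holding at least 10% of a member's counts, and for each called member the 2 most like genes, were named, except 1 that is not reported here. Fitting without the 3 libraries whose DNM1L division stood apart, and the older form of the fit, were added after seeing the data.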

Additional observations from a re-analysis of the deposited data

Results flagged for a closer look

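Chance flags about 1 in 20 for independent normal values, which transcript shares within a gene are not. Single libraries stood apart from the other 3 of their group, by Dixon's test, in 20 of the 186 groups examined. By CPM these were MFF in TGFb replicate 4 (72.7, the others 62.4 to 64.0), SDHA in control replicate 1 (433.8, the others 391.0 to 398.1), TRIB3 in control replicate 3 (45.6, the others 54.8 to 56.6), COX4I1 in STINGX with TGFb replicate 2 (111.8, the others 109.8 to 110.0), YME1L1 in TGFb replicate 4 (176.3, the others 189.0 to 190.9), ATF5 in TGFb replicate 4 (19.6, the others 21.0 to 21.1) and MIGA1 in TGFb replicate 2 (27.0, the others 21.0 to 21.7).

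The other 13 were shares of a member's counts held by a transcript. For DNM1L they were DNM1L-211 in STINGX with TGFb replicate 3 (0.0548%, the others 12.1% to 14.2%) and DNM1L-203 in control replicate 3 (51.8%) and TGFb replicate 2 (0.0265%), against 0 in the other libraries of those groups. For MIEF1 they were MIEF1-201 in control replicate 2 (54.1%) and STINGX with TGFb replicate 1 (36.3%), and MIEF1-205 in control replicate 2 (44.4%, the others 3.99% to 9.81%). MFN1-205 in TGFb replicate 3 (45.0%) and OPA1-205 in control replicate 1 (67.2%, the others 7.75% to 13.3%) also stood apart. So did OMA1-201 in TGFb replicate 2 (36.7%) and OMA1-206 in control replicate 2 (22.5%) and TGFb replicate 2 (54.9%), against 0 for OMA1-206 in the other libraries of those groups. The last were MFF-201 in STINGX with TGFb replicate 3 (20.2%, the others 32.0% to 33.6%) and the MFN2 transcript ENST00000675483 in STINGX with TGFb replicate 3 (0%, the others 9.75% to 11.7%).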

How the results depend on the processing

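Of 624 alternative values of the members' log2 changes, 553 kept direction and side of the threshold, 9 lost a call, 25 gained one and 37 changed sign. Of 60 calls of other named genes, 43 held under every alternative. All 37 changes of sign belonged to changes that did not pass. TGFb against control, MFN2 was -0.030 with upper quartile scaling, -0.053 with library totals alone, -0.047, -0.050 and -0.047 in the FPKM settings (log2(FPKM + 1), log2(FPKM + 0.1) and log2(FPKM + 1) unfiltered), -0.0027 with 2 groups and -0.012 without the 3 libraries that stood apart in DNM1L. Between the treated groups, library totals alone and the FPKM settings in that order gave 0.063, 0.052, 0.060 and 0.052 for MFN1, 0.050, 0.044, 0.047 and 0.044 for MFN2, and 0.13, 0.11, 0.12 and 0.11 for OPA1. OPA1 was 0.00014 with no filter, and DNM1L was -0.0076 without the 3 libraries. STINGX with TGFb against control, OPA1 was -0.033 without the 3 libraries. With single libraries left out, MFN2 ranged from -0.011 to 0.038 with TGFb against control. Between the treated groups DNM1L then ranged from -0.032 to 0.13, FIS1 from -0.021 to 0.060, MIEF1 from -0.054 to 0.59 and OPA1 from -0.093 to 0.061. With STINGX and TGFb against control, MIEF1 ranged from -0.44 to 0.014, OPA1 from -0.013 to 0.12 and OMA1 from -0.0031 to 0.17. The cause was not tested.

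STINGX with TGFb against TGFb, 1 member (MFF) passed with library totals alone, with each of the 3 FPKM settings, and in a range of 0 to 1 over the 12 single libraries left out. STINGX with TGFb against control, 5 passed with upper quartile scaling and 1 without the 3 libraries. In transcript usage the counts of 0, 1 and 1 member became 1 with TGFb against control at a minimum total of 100 counts, and ranged over single libraries left out from 0 to 1, from 0 to 1 and from 0 to 2. FIS1 passed with STINGX and TGFb against control without TGFb replicate 4 (adjusted p = 0.0318). With the replicate block 0 members passed in each of the latter 2 usage comparisons (adjusted p = 0.179 for DNM1L and 0.118 for MIEF1). Same-numbered libraries correlated between -0.0383 and 0.0452, so no pairing by number was detected, and the labels do not state one. Over gene counts the block gave 4, 0 and 3 members. Library totals alone gave 2224 genes higher and 3523 lower, 4997 and 1890, and 4683 and 2876 in the 3 comparisons, against 2813 and 2730, 2931 and 2933, and 3670 and 3626, and moved the median of all genes between the treated groups to 0.15. With log2(FPKM + 1), log2(FPKM + 0.1) and log2(FPKM + 1) unfiltered the split between the treated groups was 4924 and 1921, 4860 and 1913, and 4420 and 1750. OMA1 rested on 170 to 348 counts a library.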
